A study of Homo sapiens with 12 samples.

Results

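The genes described here are 31 genes of cholesterol synthesis, of its control by SREBP2 and of cholesterol transport, storage and efflux, measured by RNA-seq in LNCaP cells. They were chosen by name from textbook pathways, but with earlier results of these data known. They are 31 of the 63677 gene identifiers in the count tables. All 31 passed the low count filter, a sum of at least 10 counts over the 12 samples. LNCaP is an established human prostate cancer line whose growth depends on androgen. In 1 line a TALEN, an engineered nuclease, had removed the start codon of Bag-1L, the longest protein form of the cochaperone BAG1, while the other line was the TALEN vector control. Both lines were grown in full medium with 10% fetal bovine serum (FM), or were kept 72 h in medium with charcoal and dextran treated serum, which is poor in steroids, and received vehicle (EtOH) or 10 nM of the androgen dihydrotestosterone (DHT) for the next 16 h. This gave 6 groups (control FM, control EtOH, control DHT, Bag-1L KO FM, KO EtOH and KO DHT) of 2 samples each, described as biological duplicates. Clones had been isolated by serial dilution, and 1 line of each kind was sequenced, so loss of Bag-1L and differences between clones cannot be told apart. FM and starvation differ in the whole serum, lipoproteins included, and not only in androgen.

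Animal cells make cholesterol from acetyl-CoA, first through the mevalonate pathway to farnesyl diphosphate and then through squalene and lanosterol. When cholesterol in the endoplasmic reticulum is low, the escort protein SCAP carries the SREBP proteins, made from SREBF2 and SREBF1, to the Golgi, where they are cleaved into transcription factors that raise the genes of sterol synthesis and uptake. INSIG1 and INSIG2 hold SCAP back when sterols are plentiful, and oxysterols activate the LXR receptors, whose targets ABCA1, ABCG1 and MYLIP lower cell cholesterol. In prostate cells, androgen is known to raise genes of lipid synthesis, and cholesterol is the precursor from which steroid hormones are made.

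Gene counts per sample totalled between 20826843 and 30354666, and 3 counts, taken as the floor, equalled 0.0988 to 0.144 CPM, a floor for counting error only. All values below named normalized counts are counts divided by the sample's size factor. For BAG1 itself the control line had normalized counts of 1701 and 2703 with EtOH, 2199 and 2631 with DHT and 2117 and 1968 in FM, and the KO line 1191 and 1103 with EtOH, 1075 and 1114 with DHT and 1452 and 1576 in FM. The KO samples were lower in each condition, but these counts take in every form of BAG1 and do not measure the deleted start codon. Among the luminal prostate markers KLK2, KLK3, TMPRSS2, FOLH1, HOXB13, STEAP2, KRT8 and KRT18, the lowest value in any sample was 803.7, for TMPRSS2, while KRT5, TP63, PTPRC, CD3E and CD68 stayed below 4 normalized counts. KRT14 reached 30.7, COL1A1 ran from 370.3 to 1013 and the other 4 fibroblast markers stayed at or below 38.4. Control EtOH had the widest gap between its replicates, 0.238 as the median size of the log2 difference over all genes with a mean of at least 100, and the gap was 0.172 in control DHT and 0.0765 to 0.127 elsewhere. Among the cholesterol genes, replicate 2 of control EtOH exceeded replicate 1 by 0.82 on the log2 scale for MVD, by 0.76 for PMVK, by 0.58 for EBP and by 0.49 for TM7SF2, and results that rest on 1 of these libraries are given with and without it.

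Transcript levels of the 31 genes covered a wide range. Per kilobase of exon, the mean normalized count in control EtOH was 5171 for INSIG1, 3653 for FDFT1, 2263 for PMVK and 2232 for EBP. HMGCS1 stood at 1067 per kilobase, SREBF1 at 919 and SREBF2 at 903, and the last 2 differed by less than the spread of their replicates. Toward the low end were STARD4 at 219 per kilobase, HSD17B7 at 204, INSIG2 at 187, SOAT1 at 173, MYLIP at 168, NPC1 at 123, CYP51A1 at 20.5, ABCG1 at 18.6 and ABCA1 at 7.04. CYP51A1 encodes lanosterol demethylase, and 67.5% of its 50-base words also occur in read-through gene models and pseudogenes. Reads that align to several places were not counted, so its count is uncertain to the extent that pseudogenes hold these words. The part due to pseudogenes was not measured apart from the read-through models, which can lie at the same place in the genome. The share of words also found in other genes was 31.4% for EBP, with a read-through model, 14.2% for HSD17B7, with its pseudogene HSD17B7P2, and below 2% for each other gene. ACAT2 shares 454 exon bases with TCP1 on the opposite strand and HMGCS1 shares 2497 with an antisense gene that had between 2 and 12 counts per sample, and the strand setting of the counting is not given in the sources used here.

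**Figure D1:**
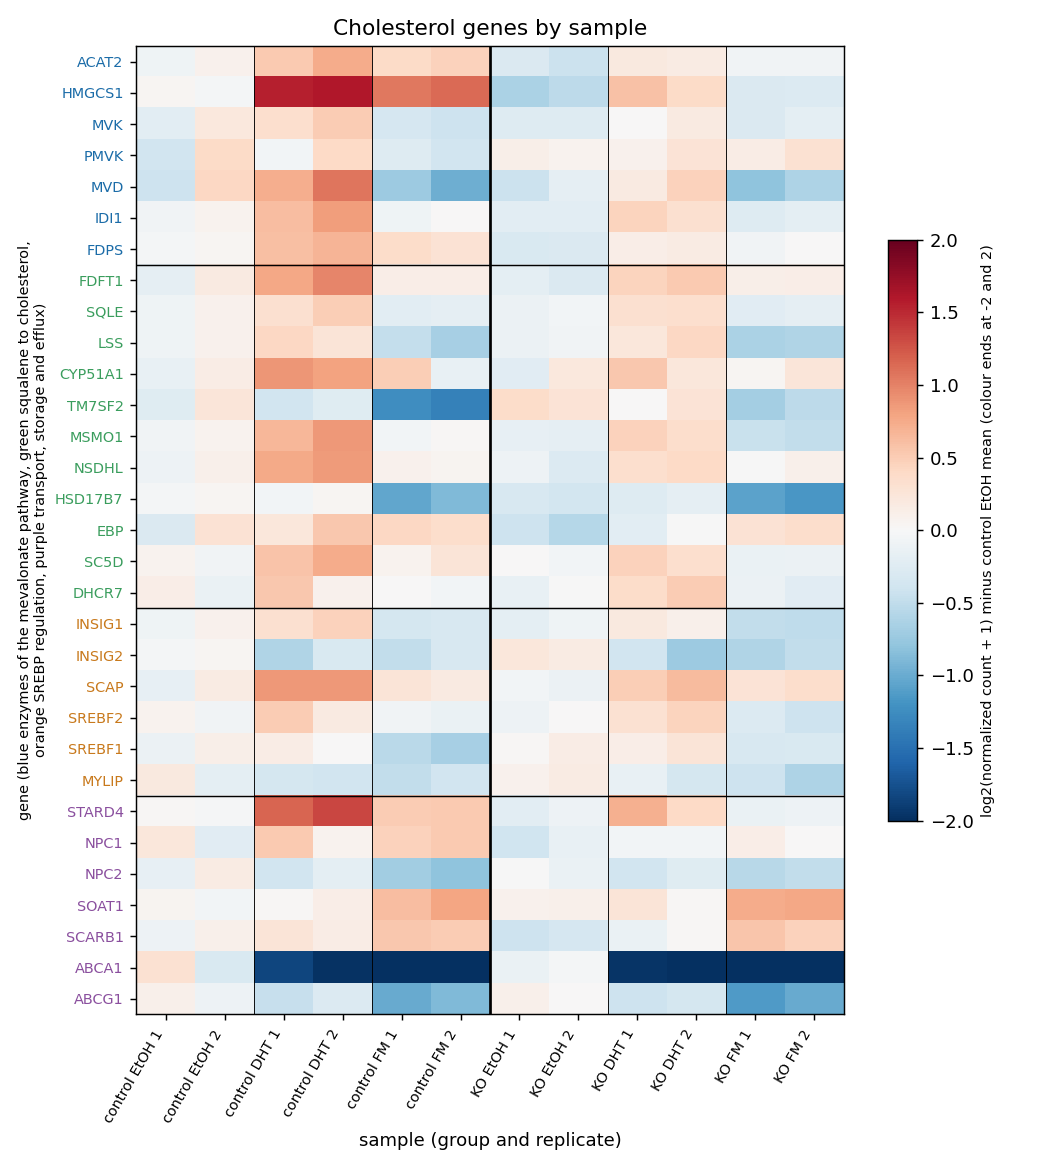
Each of the 31 genes (rows, ordered by role) in each of the 12 samples (columns), coloured by log2(normalized count + 1) minus the mean of the 2 control EtOH samples, with red higher and blue lower and the colour ending at -2 and 2. HMGCS1 and STARD4 are the reddest rows in control DHT and ABCA1 is dark blue in all DHT and FM samples.

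SREBP proteins bind sterol response elements and act together with NF-Y at CCAAT boxes and with SP1 at GC boxes, so the sequence before the transcription start is shown for HMGCS1, STARD4, MVD and ABCA1, among the genes called in most comparisons below, and for SREBF2, chosen after the search because it held the element. The bases are 250 to 101 before the start in RefSeq on GRCh38.p14, a later build than the GRCh37 used for the counts, printed 5′ to 3′ on the strand of the gene. Capitals mark CCAAT on either strand and matches to the letters TCACNCCAC or the shorter CACNCCAC it contains. The windows are chr5:43313513-43313662 for HMGCS1, chr5:111512636-111512785 for STARD4, chr16:88663192-88663341 for MVD and chr9:104928256-104928405 for ABCA1, all on the minus strand, and chr22:41832855-41833004 on the plus strand for SREBF2. HMGCS1 has another annotated start, not shown, and the 250 bases before it (chr5:43313182-43313431) held GGGCGG but no CCAAT.
HMGCS1: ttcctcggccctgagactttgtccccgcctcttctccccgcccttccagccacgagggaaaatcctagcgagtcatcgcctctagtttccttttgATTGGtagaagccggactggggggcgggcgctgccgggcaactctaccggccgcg
STARD4: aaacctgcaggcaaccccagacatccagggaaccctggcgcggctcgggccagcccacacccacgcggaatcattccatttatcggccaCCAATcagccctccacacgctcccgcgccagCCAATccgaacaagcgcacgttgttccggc
MVD: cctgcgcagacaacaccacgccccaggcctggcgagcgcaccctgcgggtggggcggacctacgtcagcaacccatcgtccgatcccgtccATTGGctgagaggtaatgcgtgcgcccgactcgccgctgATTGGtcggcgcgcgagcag
ABCA1: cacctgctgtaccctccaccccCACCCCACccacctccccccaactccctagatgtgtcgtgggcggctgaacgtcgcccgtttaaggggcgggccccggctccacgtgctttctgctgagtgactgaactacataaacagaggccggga
SREBF2: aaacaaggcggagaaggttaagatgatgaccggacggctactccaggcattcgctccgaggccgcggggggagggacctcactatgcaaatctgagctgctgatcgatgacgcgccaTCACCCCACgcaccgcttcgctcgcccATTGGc

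Promoter windows were found for 26 of the 31 genes. In the 250 bases before any annotated start, CCAAT was present in 19 of the 26 (73.1%), against 37% of 27305 genes with a window, and STARD4 and MVD each held CCAAT, read on either strand, at 2 places within the bases printed. GGGCGG occurred in 25 of the 26 (96.2%), against 46.2% of all genes. The 27305 genes were not limited to genes expressed in these cells, as the 26 are, and were not matched for base content. Whether the shares differ from those of other expressed genes was not tested. The strict sterol element TCACNCCAC was found in SREBF2 alone, 133 to 125 bases before its start, against 1.09% of all genes. The shorter CACNCCAC, which overlaps it and was added after the strict search, was found in ABCA1, IDI1, INSIG1, SC5D and SREBF2 (19.2% against 5.89%). CACGTG was in 4 of the 26 (15.4% against 7.73%), and the paired LXR half-site in none, with 0.0183% of all genes holding it. These are matches of letters on both strands, and a missing match says only that the letters are not in these windows.

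To learn which cholesterol genes respond to androgen, DHT was compared with EtOH in each line. In control cells 13 of the 31 genes were called, meaning an adjusted p of at most 0.05 over all genes tested and a fold change of at least 1.5, against 11.4% of 17535 genes tested. DHT raised 12 of them, 10 enzymes of synthesis together with SCAP and STARD4, where 6.04% of all genes tested rose, and lowered 1, ABCA1, where 5.37% fell. Over the 18 enzymes the median log2 fold change was 0.63, and 16 of 18 were above 0, while the median over all genes tested was -0.02. As in any bulk RNA sample, more RNA per cell and more cells of one kind cannot be told apart.

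HMGCS1, the cytosolic enzyme that makes HMG-CoA for the mevalonate pathway (GRCh37 chr5:43287572-43313614, minus strand), had the largest rise of the 31 genes in control cells. Its normalized counts were 7239.9 and 6898 in control EtOH and 20859 and 21371 in control DHT, a 2.99-fold rise (log2 fold change 1.58 ± 0.10 SE, adjusted p = 3.45e-54). The DHT samples lay far above the EtOH samples, and each pair of replicates lay close together. MVD, which decarboxylates mevalonate diphosphate, had 1185 and 2096 in EtOH and 2602 and 3322 in DHT, with a log2 fold change of 0.85 ± 0.21 (adjusted p = 0.000685). Its higher EtOH replicate approached the lower DHT replicate, and without EtOH replicate 1 the value was 0.50, under the fold minimum. IDI1, the isomerase of isopentenyl diphosphate, had 3845 and 4242 against 6216 and 7175, and its groups were well apart (log2 fold change 0.73 ± 0.11). FDPS, which joins isoprene units into farnesyl diphosphate, went from 2197 and 2329 to 3424 and 3615 (log2 fold change 0.64 ± 0.10). ACAT2, the thiolase at the head of the pathway, had 1735 and 1939 in EtOH and 2625 and 3061 in DHT (log2 fold change 0.63 ± 0.12). The ACAT2 call lay near the fold minimum and was lost without EtOH replicate 1 (0.55) and without DHT replicate 2 (0.51). The kinases MVK and PMVK were not called, at 0.40 and 0.13.

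From squalene onward, 5 of 11 enzymes rose. FDFT1, squalene synthase, had the highest counts of the group, 16263 and 20847 in control EtOH and 31405 and 36334 in control DHT (log2 fold change 0.87 ± 0.13, adjusted p = 1.49e-10). NSDHL, a dehydrogenase that removes methyl groups of sterols together with MSMO1, had 1441 and 1675 against 2628 and 2804 (log2 fold change 0.80 ± 0.12). For all 3 genes the DHT samples were clear of the EtOH samples, with MSMO1 at 2979 and 3289 against 4956 and 5693 (log2 fold change 0.76 ± 0.11). SC5D, a sterol desaturase of the last steps, had 3361 and 3067 against 4778 and 5347 (log2 fold change 0.66 ± 0.11), and 0.57 without DHT replicate 2. CYP51A1 counts were low, 76.1 and 94.5 in EtOH and 156 and 148 in DHT. Its call (log2 fold change 0.84 ± 0.27, adjusted p = 0.0136) was lost without control EtOH replicate 1, without either control DHT replicate, and in a fit of these 4 samples alone, with adjusted p between 0.0654 and 0.117 in these fits. SQLE and LSS, squalene epoxidase and the cyclase that forms lanosterol, passed the adjusted p but not the fold minimum, at 0.40 and 0.33. EBP, DHCR7, HSD17B7 and TM7SF2 were at 0.37, 0.32, -0.01 and -0.33, with no call.

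Among the regulators, SCAP was the gene called in control cells, with 2799 and 3510.3 in EtOH and 5689 and 5728 in DHT (log2 fold change 0.86 ± 0.12, adjusted p = 2.83e-11). Its DHT replicates were nearly equal and above both EtOH replicates. The transcripts of the factors themselves differed less. SREBF2 had 7663 and 6880.4 in EtOH and 10319.9 and 8256 in DHT, a log2 fold change of 0.35 (95% interval 0.11 to 0.60, adjusted p = 0.0289), under the fold minimum. SREBF1 had 6948 and 8188 against 8394 and 7621, overlapping ranges with a log2 fold change of 0.08 (95% interval -0.14 to 0.31). INSIG1, itself an SREBP target, had 17788 and 19961 against 23494 and 26005 (log2 fold change 0.39, adjusted p = 0.00107, not called), and its DHT samples were above its EtOH samples. INSIG2 ran the other way, with 718 and 756 in EtOH and 488 and 599 in DHT (log2 fold change -0.44, adjusted p = 0.0268, not called). MYLIP, the ubiquitin ligase that degrades lipoprotein receptors, was at -0.38 and not called.

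STARD4, a soluble carrier that moves sterol between membranes (GRCh37 chr5:110831731-110848288, minus strand), was the called transport gene that rose. It had 1261 and 1226 normalized counts in control EtOH and 2787 and 3152 in control DHT, a 2.39-fold rise (log2 fold change 1.26 ± 0.13, adjusted p = 1.35e-21). Both DHT samples exceeded the EtOH samples by a wide margin. ABCA1, the pump that loads cholesterol onto apolipoprotein A-I (GRCh37 chr9:107543287-107690436, minus strand), fell from 97.1 and 62.7 to 21.2 and 19.2 (log2 fold change -1.99 ± 0.41, adjusted p = 2.33e-05). Its mean over all samples is under 100 normalized counts and its values are shown because of the size of its change. Without EtOH replicate 1, the higher of its EtOH values, the ABCA1 log2 fold change was -1.64. ABCG1, a second efflux pump, was lower by a smaller and uncalled amount (-0.37). NPC1 and NPC2, which export cholesterol from lysosomes, the esterifying enzyme SOAT1 and the lipoprotein receptor SCARB1 were between -0.30 and 0.30, with no call.

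**Figure D2:**
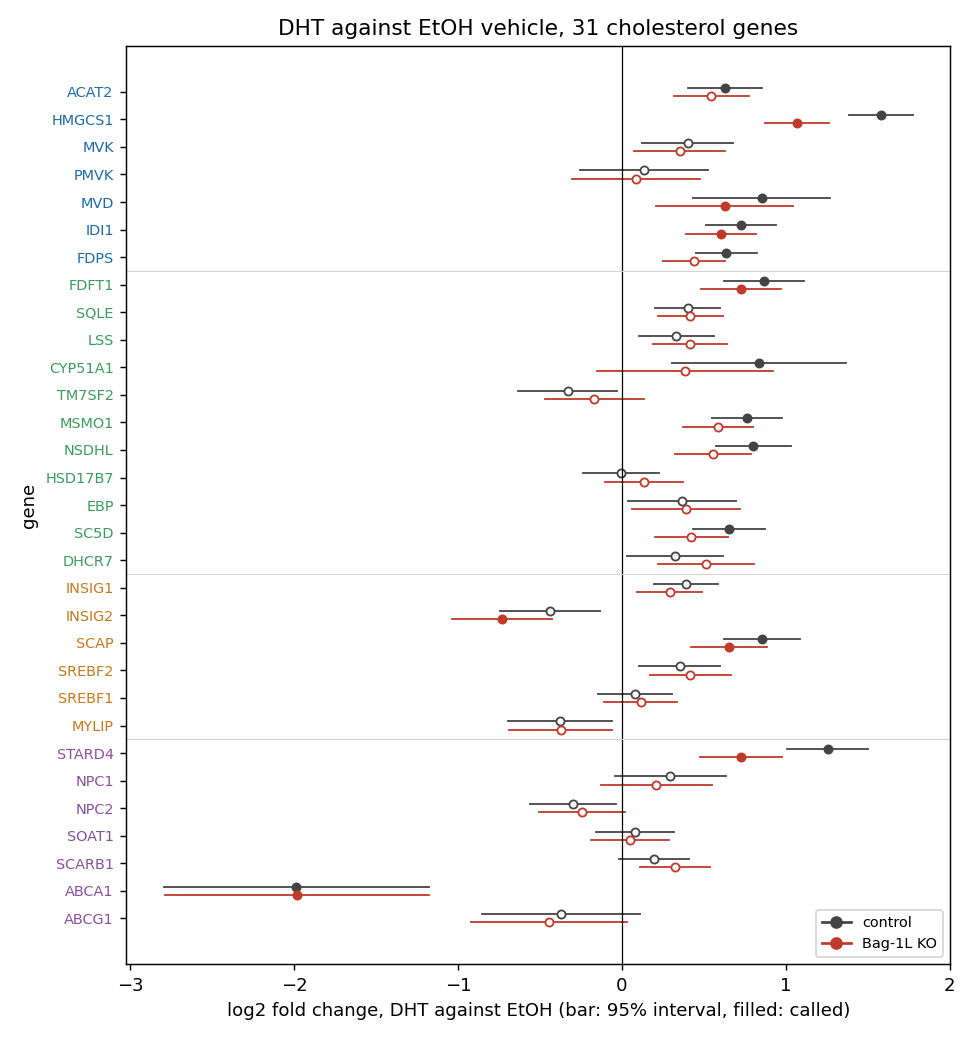
The log2 fold change of DHT against EtOH (x axis) for each of the 31 genes (y axis, ordered by role) in control (grey) and Bag-1L KO cells (red), with 95% intervals and filled points for called genes. HMGCS1 at 1.58 and STARD4 at 1.26 in control lie to the right of their KO values of 1.07 and 0.73, and ABCA1 lies near -2 in both lines.

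In Bag-1L KO cells DHT changed 8 of the 31 genes by the same rule, against 7.68% of 17535 genes tested. The 6 that rose, HMGCS1, MVD, IDI1, FDFT1, SCAP and STARD4, stand beside 4.43% of all genes tested, and the 2 that fell, INSIG2 and ABCA1, beside 3.24%. Without the fold minimum 17 genes were higher and 2 were lower at an adjusted p of at most 0.05 in KO cells, where 13.6% of all genes tested passed, and the same numbers held in control cells, where 19.9% passed. The median over the 18 enzymes was 0.43 in KO cells, with 17 of 18 above 0. The DHT comparisons of the lines share no samples.

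HMGCS1 had 4538 and 4892 in KO EtOH and 10551 and 9250.1 in KO DHT (log2 fold change 1.07 ± 0.10, adjusted p = 1.37e-24). With DHT the KO samples reached levels above those of control EtOH and below those of control DHT. STARD4 had 1070.4 and 1155 against 2038 and 1644 (log2 fold change 0.73 ± 0.13), and its value fell to 0.57, under the fold minimum, without KO DHT replicate 1. FDFT1 had 16109.5 and 15142 against 25192 and 26500.3 (log2 fold change 0.73 ± 0.13). SCAP had 3017 and 2888 against 4430.1 and 4859.6 (log2 fold change 0.65 ± 0.12), with no overlap for FDFT1 or SCAP. IDI1 had 3495 and 3471 against 5525 and 5069 (log2 fold change 0.61 ± 0.11), and 0.54 without KO DHT replicate 1. MVD had 1172 and 1384 against 1793 and 2160.4 (log2 fold change 0.63 ± 0.21, adjusted p = 0.0282), and the call was lost without KO EtOH replicate 1 (0.51) and without KO DHT replicate 2 (0.49). INSIG2, the sterol-sensing anchor of SCAP, fell from 861 and 822 to 567 and 445 (log2 fold change -0.73 ± 0.15, adjusted p = 5.13e-05), and was at -0.57 without KO DHT replicate 2. ABCA1 fell from 71.2 and 76.2 to 19.4 and 17.9 (log2 fold change -1.98 ± 0.41).

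Several genes called in control cells lay just under the fold minimum in KO cells. MSMO1 had 2783 and 2749.9 in KO EtOH and 4296 and 4001 in KO DHT, a log2 fold change of 0.58 (adjusted p = 2.06e-06). NSDHL had 1446 and 1282 against 1956 and 2056, or 0.56 on the log2 scale, and ACAT2 had 1502 and 1358 against 2109 and 2061, or 0.54. For FDPS, with 1838 and 1847 against 2474 and 2529.9, and for SC5D, with 3218 and 3102 against 4433 and 4047, the log2 fold changes were 0.44 and 0.42. The DHT samples of these 5 genes did not overlap the EtOH samples, and all 5 had an adjusted p under 0.05. CYP51A1, with 72.3 and 98.8 against 124 and 99.6, had its higher EtOH value next to its lower DHT value and was not called (adjusted p = 0.462). SREBF2 had 6764 and 7335 against 9009 and 9839.8 (log2 fold change 0.42), SREBF1 had 7643 and 8327 against 8308 and 8985 (0.11) and INSIG1 had 16407 and 17691 against 21458 and 20314 (0.29), none of them called.

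Whether the DHT response itself differed between the lines was tested as the difference of the 2 log2 fold changes, KO minus control. DESeq2 called 0 of the 31 genes, against 0.408% of 13478 genes tested, and 2 of the 31 had an unadjusted p under 0.05. edgeR also called 0, with 2 under that unadjusted p. The difference was -0.51 for HMGCS1 (95% interval -0.79 to -0.23, adjusted p = 0.0646), and without KO DHT replicate 1 it was -0.60 and called (adjusted p = 0.0479). Over all alternatives the adjusted p of HMGCS1 ran from 0.0179 to 1, and the fold minimum was met only without that library. STARD4 followed at -0.53 (95% interval -0.88 to -0.18, adjusted p = 0.308). All 7 genes of the mevalonate pathway had a difference below 0, between -0.51 and -0.05, but for the 11 later enzymes the sign was mixed, 6 above and 5 below 0. The ABCA1 difference was 0.00, with a wide 95% interval of -1.14 to 1.15.

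To see how these genes differ between the lines within the same condition, KO was compared with control. Starved cells without androgen had 0 of the 31 genes called, against 5.11% of 16521 genes tested by DESeq2. An unadjusted p under 0.05 was reached by 8 genes with DESeq2 and by 9 with edgeR, which also called 0. Without the fold minimum 6 genes passed, against 9.81% of all genes tested, all lower in KO: HMGCS1, EBP, ACAT2, FDPS, HSD17B7 and SCARB1. HMGCS1, with 7239.9 and 6898 in control and 4538 and 4892 in KO, was at -0.58 (adjusted p = 4.65e-07), only just short of the fold minimum, and was called without control EtOH replicate 2 and without KO EtOH replicate 2. EBP, the sterol isomerase, had 3162 and 4732 in control and 2890.3 and 2605 in KO, at -0.52 (adjusted p = 0.0237). Control replicate 1 of EBP lay near the KO values, so the size of this difference rested largely on control replicate 2. For MVD, with 1185 and 2096 in control and 1172 and 1384 in KO, control replicate 1 lay between the KO values. Without control EtOH replicate 1, EBP and MVD were called lower, so the count ran from 0 to 2 over the libraries left out. Without control EtOH replicate 1, 1439 of 14246 genes tested were called. The enzymes leaned to lower values in KO, 15 of 18 below 0 with a median of -0.20, while 52.2% of all genes tested were below 0 and their median was -0.01. SREBF2, SREBF1, SCAP, INSIG1 and INSIG2 lay between -0.15 and 0.19, with adjusted p of at least 0.453.

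Under DHT, 2 of the 31 genes were called lower in KO and none higher, against 7.98% of 16014 genes tested in either direction (3.32% lower and 4.66% higher). HMGCS1 stood at 20859 and 21371 in control and 10551 and 9250.1 in KO, 0.469 of the control level (log2 fold change -1.09 ± 0.10, adjusted p = 1.6e-25). STARD4 stood at 2787 and 3152 against 2038 and 1644 (log2 fold change -0.69 ± 0.12, adjusted p = 1.37e-06), and at -0.54, under the fold minimum, without KO DHT replicate 2. The ranges of the lines were separate for both. Below the fold minimum, 9 more genes had an adjusted p of at most 0.05, which 16.4% of all genes tested reached: MVD (-0.58), EBP (-0.50), FDPS (-0.49), ACAT2 (-0.45), NSDHL (-0.44), FDFT1 (-0.39), MSMO1 (-0.36) and IDI1 (-0.34) were lower in KO, and TM7SF2 (0.46) was higher. MVD and EBP were also called without control DHT replicate 1, which brought the count to 4, with 1556 of 13798 genes tested called in that fit, and without KO DHT replicate 2 the count was 1. Among the enzymes, 16 of 18 were below 0 with a median of -0.35, against 52.2% and -0.02 over all genes tested. SREBF2 was at 0.02 (95% interval -0.23 to 0.27) and SREBF1 at 0.11 (95% interval -0.11 to 0.33), and SCAP at -0.30 (adjusted p = 0.0665) was not called.

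In full medium 3 of the 31 genes were called, 2 lower and 1 higher in KO, against 8.01% of 15000 genes tested (2.6% lower and 5.41% higher). HMGCS1 had 14696 and 15576 in control FM and 5780.0 and 5876 in KO FM, 0.385 of the control level (log2 fold change -1.38 ± 0.10, adjusted p = 3.2e-40). STARD4 had 1766 and 1798 against 1138 and 1158 (log2 fold change -0.63 ± 0.13, adjusted p = 2.65e-05). The replicates of each gene lay close together and the lines did not overlap. TM7SF2, a sterol reductase, was higher in KO, with 1481 and 1369 in control and 2194 and 2442 in KO (log2 fold change 0.70 ± 0.16, adjusted p = 0.000218). Leaving out any 1 library kept the count at 3. Over the 18 enzymes the median was -0.06 and 14 were below 0, against -0.01 and 51.4% over all genes tested. ACAT2 (-0.49), MSMO1 (-0.45), FDPS (-0.36) and SC5D (-0.30) were lower and PMVK (0.55) higher at an adjusted p of at most 0.05, which 18.5% of all genes tested had, without reaching the fold minimum.

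**Figure D3:**
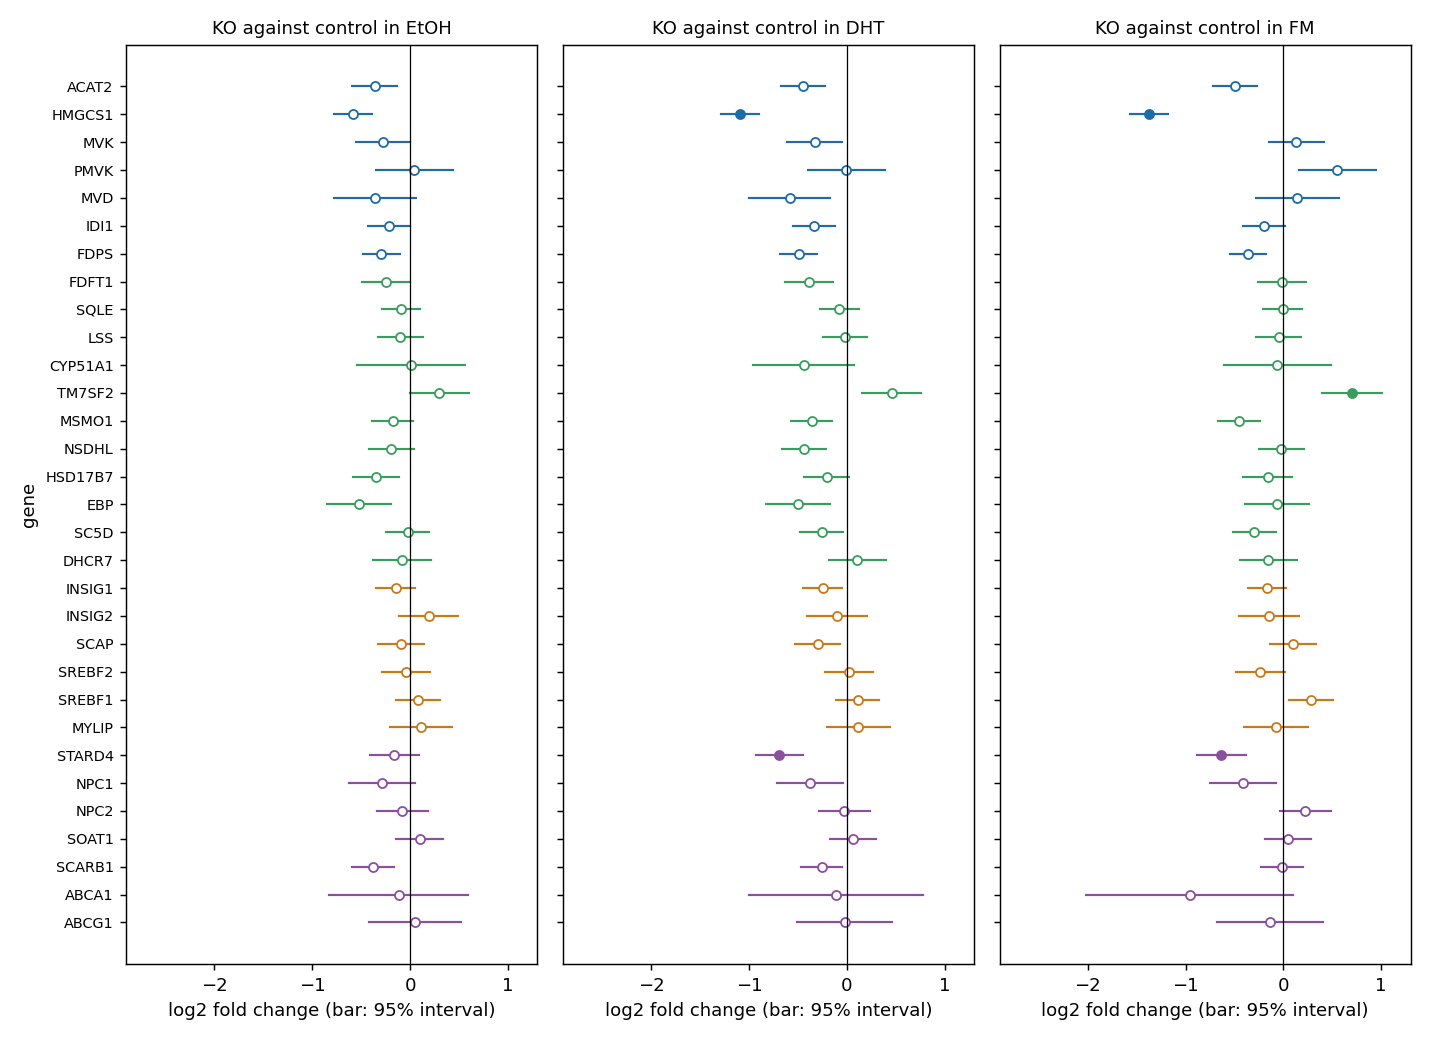
The log2 fold change of Bag-1L KO against control (x axis) for the 31 genes (y axis) in EtOH, DHT and FM, with 95% intervals and filled points for called genes. HMGCS1 is the lowest called point in DHT (-1.09) and in FM (-1.38), no point is filled in EtOH, and TM7SF2 in FM (0.70) is the called point to the right of 0.

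Full medium was then compared with starvation in each line, with the EtOH samples that also served for DHT. In control cells 9 genes were called, against 21.3% of 18549 genes tested, 2 higher and 7 lower in FM (9.81% and 11.5% of all genes tested). In KO cells 9 were called, against 19.3%, 3 higher and 6 lower (9.61% and 9.68%). Without the fold minimum 19 passed in each line, against 34.9% of all genes tested in control and 31.7% in KO. The enzymes had no shared direction in FM, with medians of -0.02 in control and 0.00 in KO against -0.01 over all genes tested in each line.

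HMGCS1 rose in control FM, from 7239.9 and 6898 in EtOH to 14696 and 15576 (log2 fold change 1.10 ± 0.10, adjusted p = 2.72e-26). In KO FM it had 5780.0 and 5876 against 4538 and 4892 in KO EtOH, a log2 fold change of 0.31 ± 0.10 that was not called. The difference between the lines was -0.79 (95% interval -1.07 to -0.52, adjusted p = 1.25e-05), the single call among 30 genes with an adjusted p, against 1.39% of 12971 genes tested. Without control EtOH replicate 1, MVK, PMVK, MVD, TM7SF2 and EBP were called as well. Each had a higher log2 fold change of FM against EtOH in KO than in control, which for MVD and TM7SF2 was a smaller fall. These are genes whose counts were lower in control EtOH replicate 1 than in replicate 2. Over all genes, 2124 of 12751 tested were called in that fit, against 180 of 12971 with all libraries. HMGCS1 replicates in control EtOH were close, and its call held with either of them left out. STARD4 had a difference of -0.47 (95% interval -0.83 to -0.12, adjusted p = 0.165).

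Of the enzymes lower in FM, TM7SF2 fell in both lines, from 2961 and 4154 to 1481 and 1369 in control (log2 fold change -1.32 ± 0.16) and from 4518 and 4225 to 2194 and 2442 in KO (-0.92 ± 0.15). HSD17B7, a ketoreductase of sterol demethylation, fell from 952 and 1005 to 477 and 529 in control (-0.96 ± 0.12) and from 783 and 754 to 467 and 434 in KO (-0.77 ± 0.13). Their FM samples were below all EtOH samples of the same line. With DHT, by contrast, HSD17B7 had 941 and 1006 in control and 821 and 867 in KO, close to its EtOH values. MVD fell in control FM, with 949 and 798 against 1185 and 2096 (-0.91 ± 0.21), but was at -0.44 and not called without control EtOH replicate 2, and in KO, with 903 and 1024, it was not called (-0.41). EBP rose in KO FM, from 2890.3 and 2605 to 4713 and 4912 (0.81 ± 0.17), and in control it had 5129 and 4942 in FM with no call (0.35).

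FDFT1, IDI1, MSMO1, NSDHL, SC5D and FDPS, enzymes that DHT raised in control cells, were not called in FM in either line. In control FM, FDFT1 had 20255 and 20144, IDI1 3817 and 4065 and NSDHL 1654 and 1619, with log2 fold changes between -0.04 and 0.12. MSMO1 had 3007 and 3188, SC5D 3374 and 3858, ACAT2 2401 and 2520.2 and FDPS 2917 and 2779, of which ACAT2 (0.42) and FDPS (0.33) passed the adjusted p without the fold minimum. In KO FM the same genes ranged from -0.29 for MSMO1, with 2306 and 2219, to 0.36 for FDFT1, with 19954 and 20128. LSS was lower in FM in both lines without reaching the fold minimum (-0.57 in control and -0.52 in KO).

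Regulators were lower in FM where they were called. SREBF1, whose protein mainly serves fatty acid synthesis, fell from 6948 and 8188 in control EtOH to 5212 and 4769 in control FM (-0.60 ± 0.11, adjusted p = 1.67e-06), but lay under the fold minimum without control EtOH replicate 2 (-0.48) and without control FM replicate 2 (-0.54). In KO FM it had 6012 and 6120.2, with -0.40 on the log2 scale and no call. INSIG2 fell in KO FM to 486 and 523 (-0.74 ± 0.16) and was at 521 and 592 in control FM, not called (-0.40). MYLIP fell in KO, from 540.3 and 575 in EtOH to 382 and 333 in FM (-0.64 ± 0.16), and was at -0.54 without KO FM replicate 2. In control it had 584 and 447 in EtOH and 362 and 391 in FM (-0.45), with no overlap and no call. SREBF2 had 6908 and 6623 in control FM and 6038 and 5458 in KO FM, with log2 fold changes of -0.10 and -0.29 against EtOH. SCAP had 3734 and 3546 and 3808 and 4000.5, with 0.21 and 0.40, and INSIG1 had 14735 and 15170.0 and 13353 and 13304, with -0.34 and -0.36, none of them called.

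Transport genes changed in both directions. The efflux pump ABCA1 fell in FM to 15.5 and 17.5 in control (-2.27 ± 0.43) and to 11.2 and 5.48 in KO (-3.12 ± 0.49), and ABCG1 fell in both lines as well (-0.96 ± 0.26 and -1.15 ± 0.26). ABCG1 counts were low, from 51.3 to 122 over all samples. SOAT1, which esterifies cholesterol for storage, rose from 1259 and 1171 to 1866 and 2107 in control (0.71 ± 0.12) and from 1295 and 1305 to 2037 and 2071 in KO (0.66 ± 0.12). Its DHT values, 1239 and 1333 in control and 1456 and 1236 in KO, were close to those of EtOH. SCARB1, a receptor for high density lipoprotein, rose in KO from 3357 and 3548 to 6588 and 6184 (0.89 ± 0.11). In control it went from 4196 and 4802 to 6532 and 6378 (0.52), under the fold minimum, and the difference between the lines was 0.37 (adjusted p = 0.22). NPC2 fell in control FM, from 1849.9 and 2321 to 1274 and 1183 (-0.76 ± 0.13), and in KO, from 2069.6 and 1882 to 1403 and 1471, it was not called (-0.46). STARD4 had 0.52 in control and 0.04 in KO, with no call in either line.

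**Figure D4:**
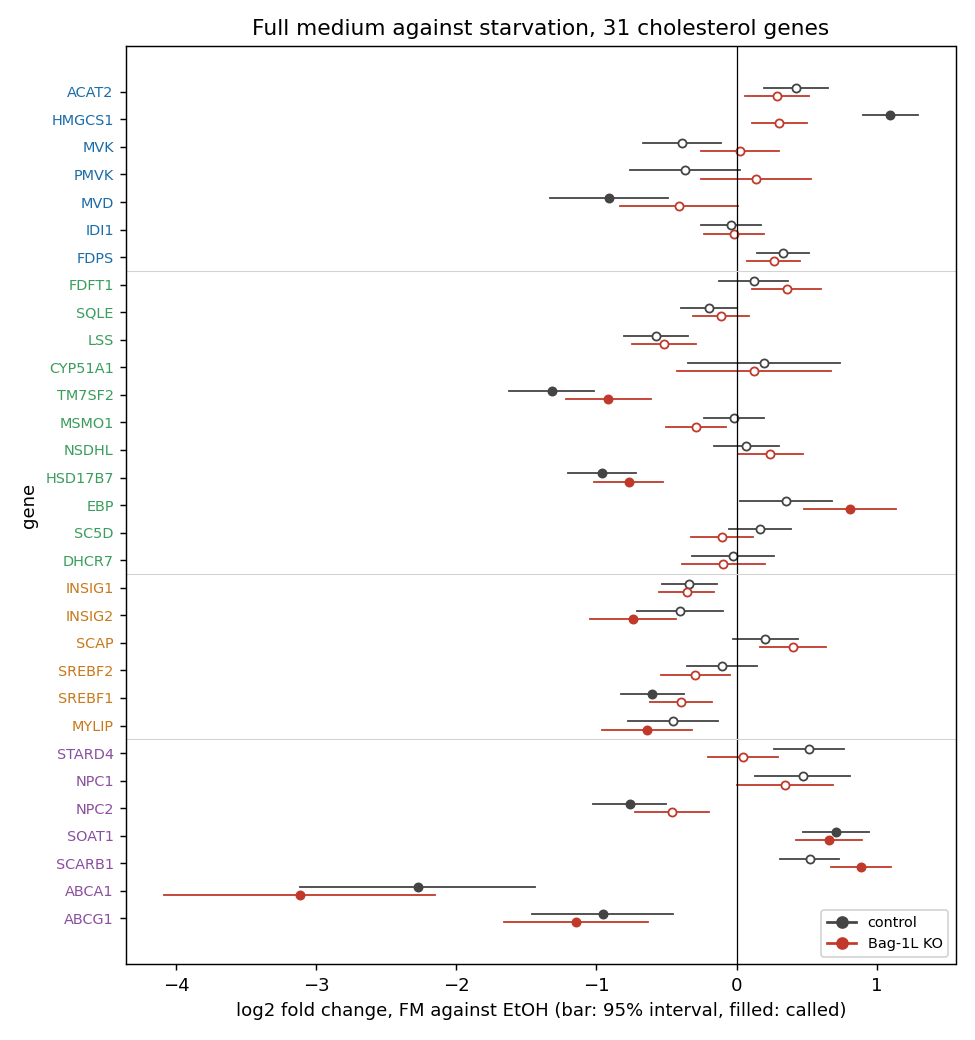
The log2 fold change of FM against EtOH (x axis) for the 31 genes (y axis, ordered by role) in control (grey) and Bag-1L KO cells (red), with 95% intervals and filled points for called genes. HMGCS1 shows the called difference between lines (1.10 against 0.31), while TM7SF2, HSD17B7, ABCA1 and ABCG1 lie left of 0 and SOAT1 right of 0 in both.

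The genes with no call in any of the 9 comparisons were MVK, PMVK, SQLE, LSS, DHCR7, INSIG1, SREBF2 and NPC1. Their normalized counts over the 12 samples ran from 1636 to 3085 for MVK, 1672 to 2873 for PMVK, 4955 to 8099 for SQLE, 3046 to 6396 for LSS, 5289 to 9024 for DHCR7 and 895 to 1706 for NPC1. For SQLE, the squalene epoxidase, both lines had a DHT value above EtOH by about the same amount (0.40 in control and 0.42 in KO), and the difference between the lines was 0.02 (95% interval -0.26 to 0.30). DHCR7, a reductase of the last step, was at 0.32 in control and 0.51 in KO with DHT.

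**Figure D5:**
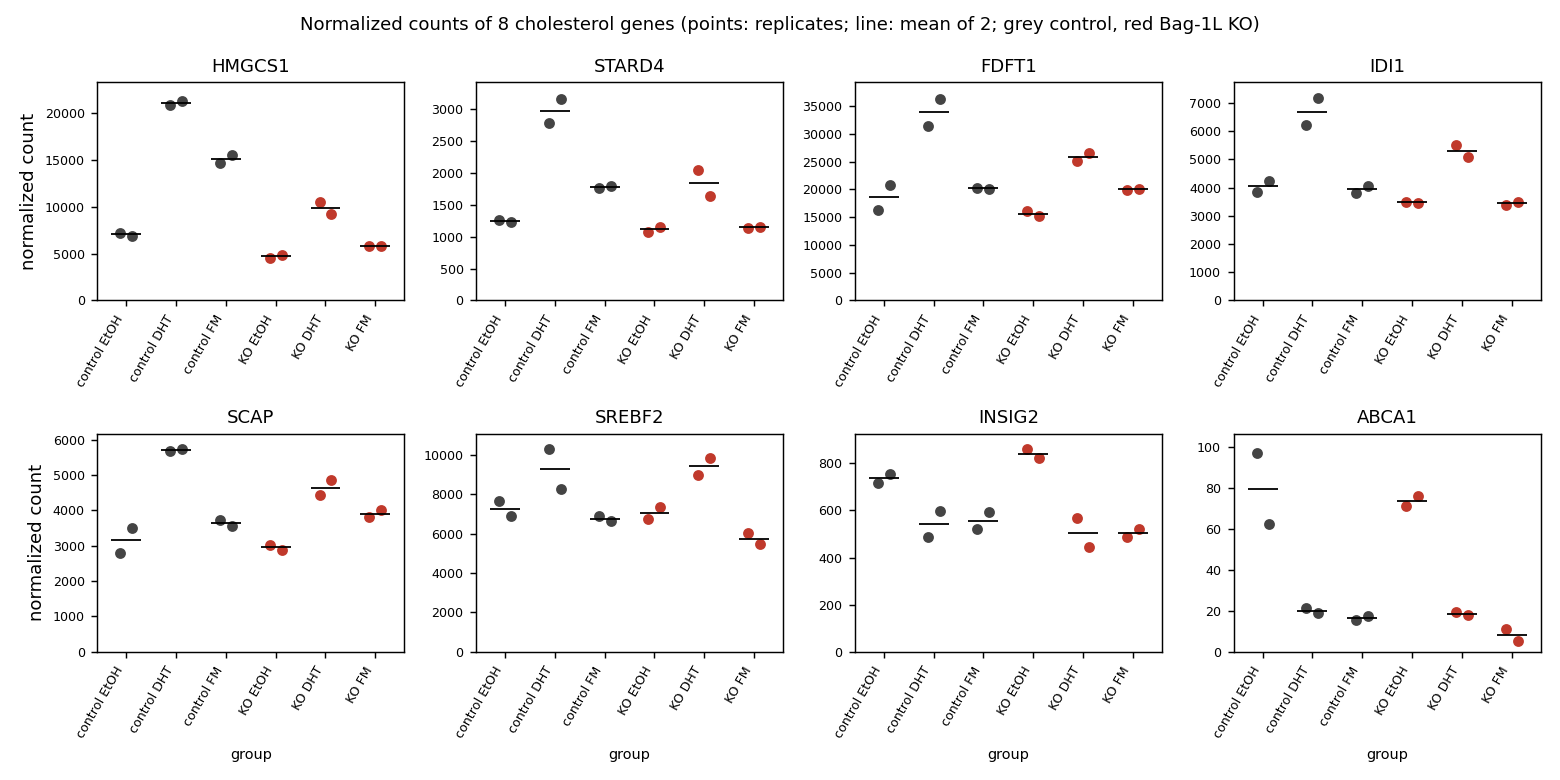
Normalized counts (y axis from 0) of 8 genes in the 6 groups (x axis), with a point per replicate and a line at the mean of 2, grey for control and red for Bag-1L KO. HMGCS1 and STARD4 are highest in control DHT, where both replicates lie above every other sample, and ABCA1 is highest in the EtOH groups.

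Other genes of sterol biology, listed for comparison by function, numbered 42, of which 38 to 40 were tested per comparison. With DHT, 1 of 40 was called in each line, the sterol transfer protein GRAMD1C, lower by -0.79 ± 0.19 in control and -0.72 ± 0.19 in KO (log2), against the 11.4% and 7.68% of all genes tested given above. In KO against control DESeq2 called none in EtOH or in DHT, with 12 and 13 at an unadjusted p under 0.05, and edgeR also called 0 in each, with 14 and 13. In FM the LXR gene NR1H3 was higher in KO (0.68 ± 0.15). FM against EtOH called 11 of 40 in control and 9 of 40 in KO, against 21.3% and 19.3% of all genes tested. In control, 4 of 6 genes of the LXR pathway were lower in FM, NR1H2 (-0.71), NR1H3 (-0.68), RXRA (-0.84) and RXRB (-0.66), where 11.5% of all genes tested were lower. In control EtOH and control FM, NR1H2 had 958 and 1378 against 742 and 689, and NR1H3 had 439 and 537 against 318 and 293. RXRA had 3799 and 4762 against 2481 and 2300, and RXRB 1442 and 1281 against 893 and 834. The NR1H2, NR1H3 and RXRB calls lay near the fold minimum, and values with a library left out are not given for these genes. In KO, RXRA (-0.71) and RXRB (-0.79) were lower, beside 9.68% of all genes tested. NR1H3 differed between the lines, at 0.85 ± 0.21 (adjusted p = 0.00988), a difference that edgeR did not call.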

How the data were processed

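Poly(A) RNA of 12 LNCaP samples had been made into stranded TruSeq libraries. The authors processed reads with CASAVA 1.7, mapped them to GRCh37 with TopHat2 2.0.11 and assigned them to Ensembl genes with HTSeq 0.5.3p3, per the submitters' processing notes. The deposited values are raw counts per gene, unnormalized and not pooled. The strand setting and Ensembl release are not given in the sources used here.

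Symbols, positions and exon lengths came from GENCODE on GRCh37, which held 55665 of 63677 identifiers. Genes with fewer than 10 counts in total were left out, which kept 26156. As in the study, DESeq2 was used (1.42.0, R 4.3.3), fitted once to the 12 samples with 1 coefficient for each group, median-of-ratios size factors and Wald tests. A gene was called at a Benjamini-Hochberg adjusted p of at most 0.05 and a fold change of at least 1.5. The fit was tried on data simulated from its own model, with 1 spread per gene for all groups. Unequal spread between groups was therefore not tested. Replicates of every group differed by more than sampling noise. P-values rest on 1 spread per gene shared by the 6 groups, although control EtOH replicates differed most. For DHT in control, fitting only the samples compared called 1379 of 16212 genes tested, against 2001 of 17535 in the main fit. The labels do not tie the duplicates to separate cultures, and depth and floors cover counting error only.

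Every one of the 31 genes was named, with values per sample for those called at a mean of at least 100 normalized counts and for SREBF1, SREBF2, SCAP, INSIG1 and INSIG2, and related genes were named where called, except for listed genes that are not reported here. ABCA1 values are an addition to this rule. The genes and lists were chosen with earlier results of these data known. Alternatives were edgeR's quasi-likelihood test (4.0.16) with TMM, DESeq2 with TMM size factors, other filters, the replicate number as a block, only the samples compared, no fold minimum, and each replicate left out.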

Additional observations from a re-analysis of the deposited data

Results flagged for a closer look

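The difference between the lines in the FM response of HMGCS1, -0.793 on the log2 scale (KO minus control), stood out because a test of the difference itself passed the threshold. It came from a called rise of 1.10 in control cells and an uncalled one of 0.31 in KO cells. Over 14 alternatives it ran from -0.84 to -0.74, with adjusted p from 2.91e-07 to 0.0234, the highest from edgeR.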

How the results depend on the processing

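Of 492 values for 48 single-gene results, 473 kept their direction and their side of the threshold, 18 lost the call, 1 gained it and 0 reversed. Without the fold change minimum the members called were 19 for DHT in KO, 6, 11 and 8 for KO against control in EtOH, DHT and FM, and 19 for FM against EtOH in each line. Fitting only the samples compared gave 1 for KO against control in EtOH, HMGCS1. In that fit 531 of 17129 genes tested were called, against 844 of 16521 in the main fit. With each replicate left out in turn, counts ran from 10 to 15 for DHT in control, from 7 to 10 for DHT in KO, from 0 to 1 for their difference, from 0 to 2, 1 to 4 and 3 to 3 for KO against control in EtOH, DHT and FM, from 8 to 13 and 8 to 9 for FM in control and KO, and from 1 to 6 for the difference in FM response. The 6 came without control EtOH replicate 1, where 2124 of 12751 genes tested were called, against 180 of 12971 with all libraries. A lone sample left in a group was assumed to vary like the other groups. The numbers called over all genes moved between these fits as well, so the ranges are not particular to the cholesterol genes. edgeR, TMM size factors and no filter on low counts moved no count by more than 1.5 times. Asking for 10 or more counts in each sample left out ABCA1.

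The log2 differences of replicate 2 from replicate 1 correlated with either sign between groups (15 correlations from -0.415 to 0.692 over 11374 genes, 8 of them positive). Control EtOH correlated with control DHT at 0.692 and with KO DHT at 0.559, but with KO EtOH at -0.414. Whether the numbers mark a shared batch was not tested. With the replicate block the counts were 13, 9 and 0 for DHT in control, in KO and their difference, 0, 2 and 3 for KO against control in EtOH, DHT and FM, and 9, 9 and 1 for FM in control, in KO and their difference. The cause of these changes was not tested. With 2 samples per group the precision is limited, and ABCA1, with as few as 5.48 normalized counts in a sample, has the widest intervals.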

Other observations

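Further genes of sterol biology changed in full medium. PDSS1, which makes the isoprene tail of ubiquinone, was higher in FM than in EtOH by 0.88 ± 0.14 (log2, SE) in control and 0.90 ± 0.15 in KO, and LBR, a sterol reductase of the nuclear membrane, by 0.64 ± 0.11 and 0.64 ± 0.11. The sterol transfer protein GRAMD1A was lower by -0.75 ± 0.13 and -0.82 ± 0.13. TMEM97 was called in KO alone (0.69 ± 0.09), and MBTPS2, a protease that cleaves SREBP, in control alone (0.59 ± 0.12), a call near the fold minimum that edgeR did not make. No difference between the lines was called for any of these genes.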
